A study of Mus musculus with 10 samples.

Results

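The genes of surfactant lipid and cholesterol synthesis were a fixed list of 40 enzymes, transporters and regulators that make or handle phospholipids, fatty acids and sterols, taken by gene symbol under a rule that used no measured value, although earlier results of these data were known when the list was made. A probe set that names the gene alone was found for 38 of the 40, among 17813 genes in all, and each of the 38 rested on 1 probe set. *Prdx6* and *Acat2* were not analysed here. The 38 genes comprised 12 of phospholipid synthesis and remodelling, 11 of fatty acid synthesis, uptake and storage, and 15 of sterol synthesis and sensing.

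RNA from distal tip cells of embryonic mouse lung had been hybridised to Affymetrix arrays, 5 for E11.5 and 5 for E17.5, and all embryos carried *Id2-CreER; Rosa26R-fGFP*. At E11.5 the tip epithelium was freed by dispase and microdissected, and no tamoxifen is described for that stage. At E17.5 the lungs had been exposed to tamoxifen at E16.5 through the mother (150 µg per gram of body weight), and GFP+ cells were sorted after trypsin dissociation. Because Cre is driven from *Id2*, the sorted cells are those that expressed *Id2* around E16.5 together with some of their immediate progeny, and stage, tamoxifen and the mode of isolation cannot be told apart. The labels call the arrays biological replicates, without saying whether they came from separate litters, so p-values measure the spread between these arrays. In bulk RNA of this kind, fewer cells of a type and less RNA per cell cannot be told apart either.

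Pulmonary surfactant is a film of lipid and protein that lowers surface tension in the alveoli and is made by alveolar type 2 (AT2) cells from late gestation onwards. Its main lipid is phosphatidylcholine with saturated fatty acid chains, built by the CDP-choline route from glycerol phosphate, fatty acids and choline and then remodelled by exchange of its chains. Fatty acids are made from citrate by way of acetyl-CoA and malonyl-CoA or are taken up from the blood, and cholesterol, the main neutral lipid of surfactant, is made from acetyl-CoA by way of mevalonate and squalene. Transcription factors of the SREBP family, which bind the sterol regulatory element, switch on many of these enzymes when membrane sterol is low.

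At E17.5, 19 of the 38 genes stood higher than at E11.5 and 16 stood lower, while 3 missed the threshold, a Benjamini-Hochberg adjusted p under 0.05 in limma over all genes tested. Among all 17813 genes, 36.9% were called higher and 31.5% lower, so calls in either direction were common in this comparison. Among the called lipid genes, 13 were at least 2-fold higher and 12 at least 2-fold lower, against 24.2% and 16.3% of all genes. Every E17.5 array lay above every E11.5 array for 18 of the 38 and below for 14, against 32.3% and 26.3% of all genes. The median difference of the 38, on the log2 scale as E17.5 minus E11.5, was 0.31, beside 0.03 over all genes. That median changed sign with the scaling, to -0.26 (15 higher, 19 lower) after quantile normalization, while it was 0.06 (18 and 18) after median centring. These scalings moved the median of all genes to -0.04 and -0.22, with 5702 higher and 6943 lower genes in the first case and 5509 and 7922 in the second.

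The 3 lipid classes differed in their counts, which stand beside 36.9% of all genes called higher and 31.5% called lower. Of the phospholipid genes, 6 were higher and 6 lower, with a median difference of 0.04 that was negative under both other scalings, at -0.38 and -0.20. Of the fatty acid genes, 9 were higher and 2 lower, with a median of 0.96 (0.59 with quantile normalization, 0.71 with median centring). Of the sterol genes, 4 were higher, 8 were lower and 3 were not called, with a median of -0.80 (-1.38 and -1.05). The difference between the classes was not tested.

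**Figure D1:**
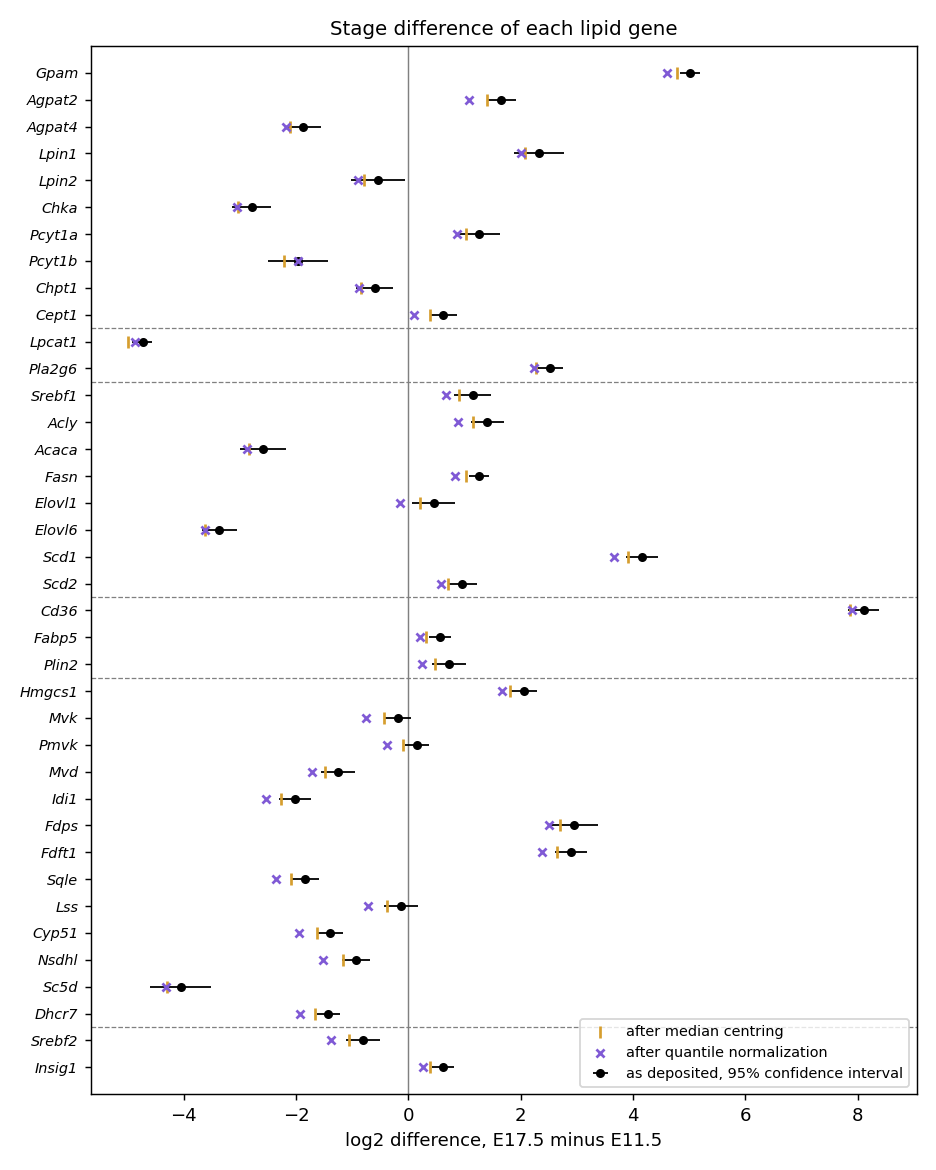
Difference between stages of each of the 38 lipid genes, as E17.5 minus E11.5 on the log2 scale (horizontal axis), with genes in the order of their pathway and dashed lines between role groups. Black points are the deposited values with the 95% confidence interval of limma, orange bars the differences after median centring and violet crosses those after quantile normalization; *Cd36* lies farthest to the right at 8.11 and *Lpcat1* farthest to the left at -4.73.

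The promoters of these genes were searched for fixed letters of the sterol regulatory element and of other factors. Variant letters were not searched, so a gene without a match can still hold another form of the element. RefSeq windows from 250 bases before to 50 after a start site (build GRCm38.p6) were found for 33 of the 40 listed genes, and not for *Prdx6*, *Scd1*, *Scd2*, *Fabp5*, *Fdps*, *Fdft1* and *Sqle*. Both strands were searched for TCACNCCAC, a sterol regulatory element, and for CCAAT, the box of the SREBP partner NF-Y. The first was in 2 of the 33 genes, *Hmgcs1* and *Pcyt1a*, and in 1.44% of 27025 genes with a window. The second was in 26 of the 33 (78.8%), against 41.1% of those genes, and in 10 of the 11 genes of sterol synthesis with a window. The Sp1 box GGGCGG was likewise in 26 of the 33 (78.8%, against 38.2% of all genes) and in 10 of those 11. TTNNGCAA, a C/EBP site, was in 5 of the 33 (15.2%, against 12.2% of all genes). A gene with several windows was counted if any of them matched. Counted by window, the listed genes had CCAAT in 59.6% (37.4% of all windows), GGGCGG in 68.1% (35.7%) and TTNNGCAA in 10.6% (10.8%). Such matches describe letters and not binding. The 250 bases before the start are printed below for both genes with the sterol element and for *Idi1* and *Cyp51*, which stand for the sterol enzymes that fell, 5′ to 3′ in the direction of the gene, with both motifs, on either strand, in capitals.
Hmgcs1, chr13:119690101-119690350, plus strand: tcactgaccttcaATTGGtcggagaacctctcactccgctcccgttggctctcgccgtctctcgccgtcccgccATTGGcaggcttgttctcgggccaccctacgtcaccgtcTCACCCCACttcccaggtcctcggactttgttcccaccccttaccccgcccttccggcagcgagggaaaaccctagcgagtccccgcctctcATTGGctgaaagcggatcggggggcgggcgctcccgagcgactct
Pcyt1a, chr16:32430671-32430920, plus strand: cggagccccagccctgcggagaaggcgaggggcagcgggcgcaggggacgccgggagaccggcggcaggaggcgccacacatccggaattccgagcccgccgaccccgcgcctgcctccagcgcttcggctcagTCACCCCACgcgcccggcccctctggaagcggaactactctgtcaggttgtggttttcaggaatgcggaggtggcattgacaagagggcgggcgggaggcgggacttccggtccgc
Idi1, chr13:8885356-8885605, plus strand: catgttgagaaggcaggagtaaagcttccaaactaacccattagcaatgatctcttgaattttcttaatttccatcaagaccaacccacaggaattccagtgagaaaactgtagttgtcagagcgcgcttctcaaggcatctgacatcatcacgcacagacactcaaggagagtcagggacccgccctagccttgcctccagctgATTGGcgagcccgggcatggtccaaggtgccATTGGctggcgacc
Cyp51, chr5:4104698-4104947, minus strand: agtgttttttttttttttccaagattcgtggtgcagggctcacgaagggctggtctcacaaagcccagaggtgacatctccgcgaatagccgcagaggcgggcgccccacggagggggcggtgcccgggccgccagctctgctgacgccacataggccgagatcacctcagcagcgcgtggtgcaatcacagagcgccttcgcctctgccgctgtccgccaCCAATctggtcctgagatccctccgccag
In *Hmgcs1* the sterol element began 137 bases before the start, between CCAAT boxes at 237, 176 and 45 bases. In *Pcyt1a* it began at 116 bases, with no CCAAT box in the printed stretch. *Idi1* held boxes at 45 and 14 bases and *Cyp51* at 29 bases. No capital stretch in these lines overlaps another.

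Phospholipid synthesis begins with the acylation of glycerol phosphate, and the largest rise of the phospholipid genes was found at that step. *Gpam*, the mitochondrial glycerol-3-phosphate acyltransferase, had log2 signals of 8.07, 8.32, 8.19, 8.21 and 8.32 on the E11.5 arrays and 13.35, 13.18, 13.32, 13.19 and 13.18 on the E17.5 arrays. The stages lay far apart and each was tight, with an SD of 0.10 and 0.08 (n = 5 each). The mean rose by 5.02 on the log2 scale (95% confidence interval 4.84 to 5.20), which is 32.5-fold (limma, adjusted p = 4.8e-13).

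The next acylation is carried out by the AGPAT enzymes, which turn lysophosphatidic into phosphatidic acid. *Agpat2* had log2 signals of 9.10, 8.75, 8.77, 8.72 and 8.45 at E11.5 and 10.48, 10.23, 10.44, 10.55 and 10.35 at E17.5, a 3.15-fold rise (limma, adjusted p = 7.8e-08). *Agpat4* had 8.61, 8.49, 8.46, 8.77 and 8.86 at E11.5 and 6.78, 7.05, 6.92, 6.28 and 6.81 at E17.5, a 3.66-fold fall (limma, adjusted p = 1.5e-07). These paralogues thus changed in opposite directions, and in neither did the stages overlap.

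Phosphatidic acid phosphatases of the lipin family then make diacylglycerol, the acceptor of phosphocholine. *Lpin1* rose 5.02-fold, from 7.37, 6.63, 6.80, 6.80 and 7.12 to 9.12, 9.59, 9.83, 8.76 and 9.06 (limma, adjusted p = 5.9e-07). *Lpin2* had 8.04, 8.45, 8.31, 8.30 and 8.66 at E11.5 and 8.54, 8.15, 7.67, 7.34 and 7.40 at E17.5, so that the stages overlapped through E17.5 replicates 1 and 2. Its difference of -0.53 (95% confidence interval -1.02 to -0.05) passed the threshold narrowly (limma, adjusted p = 0.049). The call was lost when any of E11.5 replicates 2 to 5 or E17.5 replicates 3 to 5 was left out, with adjusted p up to 0.12.

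Choline enters the pathway through choline kinase and is activated by the phosphocholine cytidylyl transferase, the rate-limiting step of phosphatidylcholine synthesis. *Chka*, a choline kinase, had log2 signals of 8.52, 9.08, 8.87, 8.52 and 9.12 at E11.5 and 6.16, 5.70, 6.39, 5.93 and 5.98 at E17.5. It fell 6.91-fold (limma, adjusted p = 1.0e-08), and the highest E17.5 array was below the lowest E11.5 array. The other choline kinase gene, *Chkb*, outside the 40, was 1.73-fold higher (limma, adjusted p = 2.8e-06).

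The cytidylyl transferase genes also moved apart. *Pcyt1a*, which encodes the widely expressed alpha form, rose 2.40-fold from 7.32, 7.77, 7.87, 7.77 and 8.05 to 9.39, 9.11, 8.50, 9.16 and 8.92 (limma, adjusted p = 3.4e-05). *Pcyt1b*, the beta form, fell 3.92-fold from 6.70, 6.66, 6.41, 6.49 and 5.98 to 3.79, 4.95, 5.11, 4.12 and 4.41 (limma, adjusted p = 1.3e-05). Among the phospholipid genes with a promoter window, only *Pcyt1a* held TCACNCCAC, as printed above.

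The final transfer of phosphocholine to diacylglycerol changed less. *Cept1*, the choline and ethanolamine phosphotransferase, was 1.54-fold higher (11.34 ± 0.13 to 11.96 ± 0.20, mean ± SD, n = 5 each, limma, adjusted p = 0.0003), but it was no longer called after quantile normalization (difference 0.11). *Chpt1*, the choline phosphotransferase, was 1.51-fold lower (8.04 ± 0.05 to 7.44 ± 0.36, adjusted p = 0.0036). Its stages overlapped, with an E17.5 replicate 1 at 7.99 and an E11.5 replicate 4 at 7.95.

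Remodelling exchanges the chain at the middle carbon of the finished lipid. *Pla2g6*, a calcium-independent phospholipase A2 that removes a chain, rose 5.75-fold, from 6.39, 6.85, 6.59, 6.67 and 6.88 to 9.16, 9.06, 9.22, 9.35 and 9.22 (limma, adjusted p = 5.9e-10). *Lpcat1*, the lysophosphatidylcholine acyltransferase known for making dipalmitoyl phosphatidylcholine in AT2 cells, had log2 signals of 7.86, 7.90, 7.95, 7.81 and 7.98 at E11.5 and 3.06, 3.20, 3.32, 3.11 and 3.15 at E17.5. The arrays of each stage lay close together, and the probe set was 26.6-fold lower at E17.5 (95% confidence interval of the log2 difference -4.91 to -4.56, limma, adjusted p = 5.5e-13). This direction is opposite to that of 15 of 16 AT2 marker genes measured. By antibody staining, the paper reports LPCAT1 protein in tip cells from E16.5, with more in differentiating AT2 cells. That staining measured protein and not RNA, and its time-course did not include E11.5. The *Lpcat1* value, like that of each of the 38 genes, rests on 1 probe set, and no further probe set of the gene was in the table to set beside it. Its probe set is 1 of 22 listed with a GenBank record other than a RefSeq transcript. So are those of *Chka*, *Acaca* and *Sc5d*, which fell, and of *Cd36*, *Fdps* and *Pla2g6*, which rose. The probe set of *Elovl6*, which fell, is listed with a RefSeq transcript. Whether the kind of record bears on these values was not tested.

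**Figure D2:**
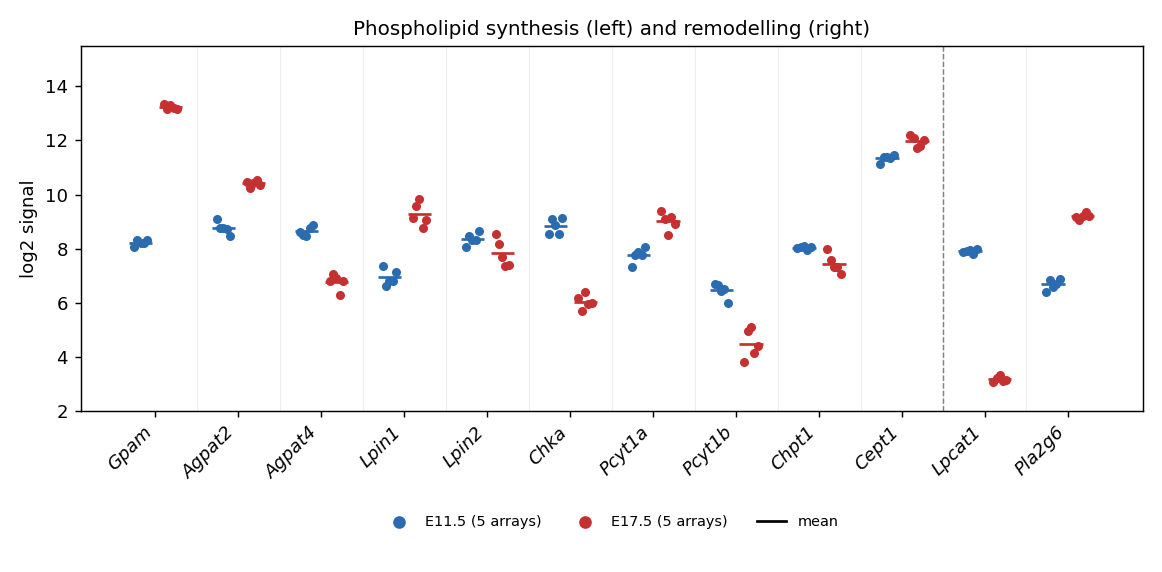
Log2 signal (vertical axis) of the 12 phospholipid genes on each array, in the order of the pathway, with E11.5 in blue, E17.5 in red and a line at the mean of 5 arrays. *Gpam* rose to between 13.18 and 13.35 and *Lpcat1* lay between 3.06 and 3.32 at E17.5, and the stages overlapped for *Lpin2* and *Chpt1*.

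In the fatty acid class the regulator and most enzymes of the main chain of synthesis rose. *Srebf1*, which encodes the SREBP that drives fatty acid genes, rose 2.22-fold, from 12.04, 11.43, 11.35, 11.47 and 11.14 to 12.55, 12.60, 12.88, 12.69 and 12.47 (limma, adjusted p = 2.4e-05). *Acly*, ATP citrate lyase, which supplies acetyl-CoA, rose 2.64-fold from 8.22, 8.24, 8.23, 8.22 and 8.29 to 10.06, 9.72, 9.33, 9.32 and 9.77 (adjusted p = 1.3e-06). For both, the stages were separate on every array, and the E11.5 arrays of *Acly* were the tightest of the 38 genes (SD 0.03).

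Acetyl-CoA carboxylase and fatty acid synthase carry out the next steps. *Acaca*, the carboxylase that makes malonyl-CoA for synthesis, had 8.82, 8.82, 8.58, 8.77 and 9.22 at E11.5 and 6.77, 6.15, 5.64, 6.30 and 6.43 at E17.5, so that it fell by 2.58 on the log2 scale (limma, adjusted p = 1.1e-07). *Acacb*, its mitochondrial paralogue outside the 40, was 3.06-fold higher (adjusted p = 1.2e-07). *Fasn*, fatty acid synthase, rose 2.39-fold from 12.21, 12.07, 12.08, 12.02 and 11.92 to 13.41, 13.24, 13.30, 13.34 and 13.32 (adjusted p = 2.5e-08), so that adjacent steps of the route differed in direction.

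The stearoyl-CoA desaturases, which introduce the unsaturated bond of oleate and palmitoleate, both rose. *Scd1* had log2 signals of 9.91, 9.78, 10.05, 9.69 and 10.08 at E11.5 and 14.23, 14.27, 14.12, 13.67 and 13.99 at E17.5. Its lowest E17.5 array was far above its highest E11.5 array, and the rise was 17.8-fold (95% confidence interval of the log2 difference 3.88 to 4.44, limma, adjusted p = 3.8e-11). *Scd2*, the form known from embryonic tissue, rose 1.94-fold from 13.01 ± 0.23 to 13.97 ± 0.12 (adjusted p = 1.2e-05).

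Elongases lengthen the chains. *Elovl6*, which extends palmitate to stearate, fell 10.3-fold, from 8.30, 8.53, 8.40, 8.60 and 8.77 to 5.12, 5.13, 4.83, 5.07 and 5.63 (limma, adjusted p = 6.8e-10). *Elovl1*, which extends saturated very long chains, had 9.95 ± 0.13 at E11.5 and 10.40 ± 0.42 at E17.5 with overlapping arrays, and its difference of 0.45 passed narrowly (adjusted p = 0.038). That call was lost when any of 8 of the 10 arrays was left out (adjusted p up to 0.081) and after median centring, and the sign turned after quantile normalization (-0.15).

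The genes of uptake and storage rose in all 3 cases, by very unequal amounts. *Cd36*, a scavenger receptor that takes up long-chain fatty acids, had log2 signals of 4.04, 3.89, 4.34, 4.44 and 4.07 at E11.5 and 12.26, 12.35, 12.42, 11.98 and 12.30 at E17.5. This was the largest difference of the 38 genes, 8.11 on the log2 scale (95% confidence interval 7.83 to 8.38) or 275-fold (limma, adjusted p = 4.0e-13). *Fabp5*, a cytoplasmic fatty acid binding protein, was 1.48-fold higher and *Plin2*, which coats lipid droplets, 1.65-fold higher (adjusted p = 0.00011 and 0.00039). Both calls were lost after quantile normalization, with differences of 0.21 and 0.24.

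**Figure D3:**
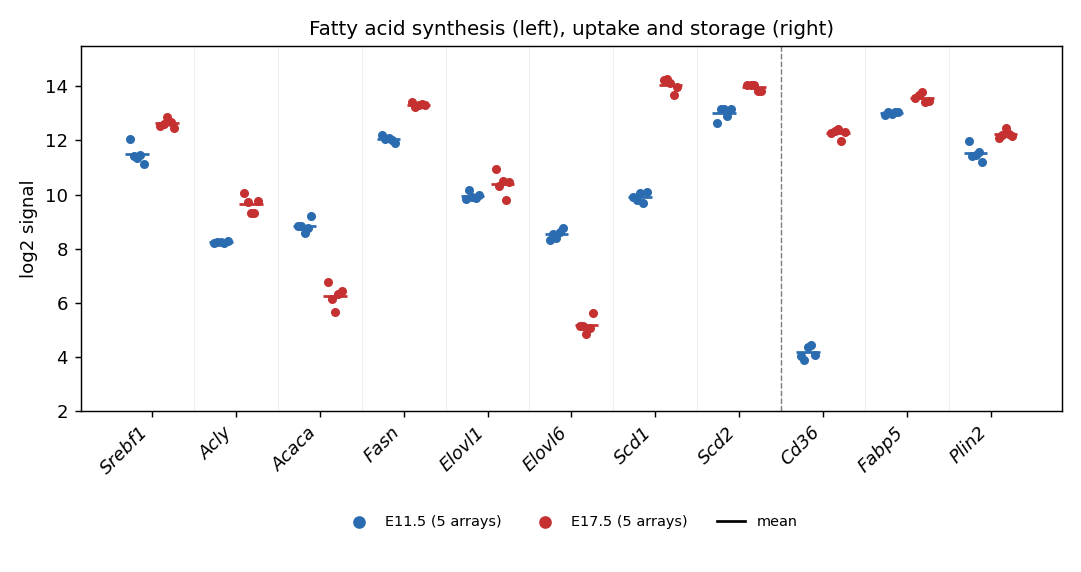
Log2 signal (vertical axis) of the 11 fatty acid genes on each array, with E11.5 in blue, E17.5 in red and a line at the mean of 5 arrays. *Scd1* and *Cd36* rose farthest, *Acaca* and *Elovl6* fell, and the stages overlapped for *Elovl1*.

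Several of these genes are also expressed outside the epithelium, *Cd36* in capillary endothelium and macrophages among others, so the markers of other cells were measured on the same arrays. Of 21 endothelial markers, 19 were higher and 0 lower at E17.5, and the mean log2 signal of the list lay at 5.53 to 6.39 on the E11.5 arrays and 9.01, 10.33, 9.55, 8.72 and 10.61 on the E17.5 arrays. Macrophages and monocytes were represented by 25 markers, 22 of them higher and 1 lower, with list means of 5.39 to 6.12 and of 9.05, 9.07, 9.05, 8.23 and 8.43. Of 22 fibroblast and lipofibroblast markers, 9 were higher and 7 lower (40.9% and 31.8%, against 36.9% and 31.5% of all genes). Their list means overlapped, at 6.97 to 7.98 and 7.67 to 8.70. The defining genes of this fibroblast list were *Col1a1* (log2 difference 0.57, not called), *Col1a2* (2.77, higher) and *Col3a1* (2.12, higher). The E17.5 means of *Pecam1* (10.71), *Cdh5* (6.23) and *Kdr* (10.12) for endothelium and of *Ptprc* (8.85), *Cd53* (11.71) and *Tyrobp* (11.95) for leukocytes were each above their E11.5 means. *Cd36* lay between 11.98 and 12.42 over the E17.5 arrays, with its highest value on replicate 3 and its lowest on replicate 4. That array had the lowest endothelial and macrophage list means, and also the lowest AT2 list mean (13.18, against 13.31 to 13.45). The part of the non-epithelial cells in the lipid gene differences was not tested.

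The epithelial identity of the samples can be read from the same table. The tip and epithelial list had E11.5 means of 11.07 to 11.27 and E17.5 means of 11.05 to 11.40. Of its 17 genes, 9 were higher and 6 lower (52.9% and 35.3%, against 36.9% and 31.5% of all genes). Its defining genes were *Sox9*, which had 9.60 and 9.58 and was not called, *Id2*, which rose by 2.10, and *Etv4*, which fell by 1.87 on the log2 scale. Of the 16 AT2 markers 15 were higher, with list means of 8.15 to 8.47 and 13.18 to 13.45, among them the surfactant protein genes *Sftpa1* (log2 difference 6.42), *Sftpb* (4.96) and *Sftpc* (2.54). Of 8 erythroid markers 4 were lower and 1 higher, with list means of 7.36 to 8.55 and 5.37 to 6.03, and the embryonic globins *Hbb-y*, *Hba-x* and *Hbb-bh1* fell by 7.84, 6.72 and 6.04.

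**Figure D4:**
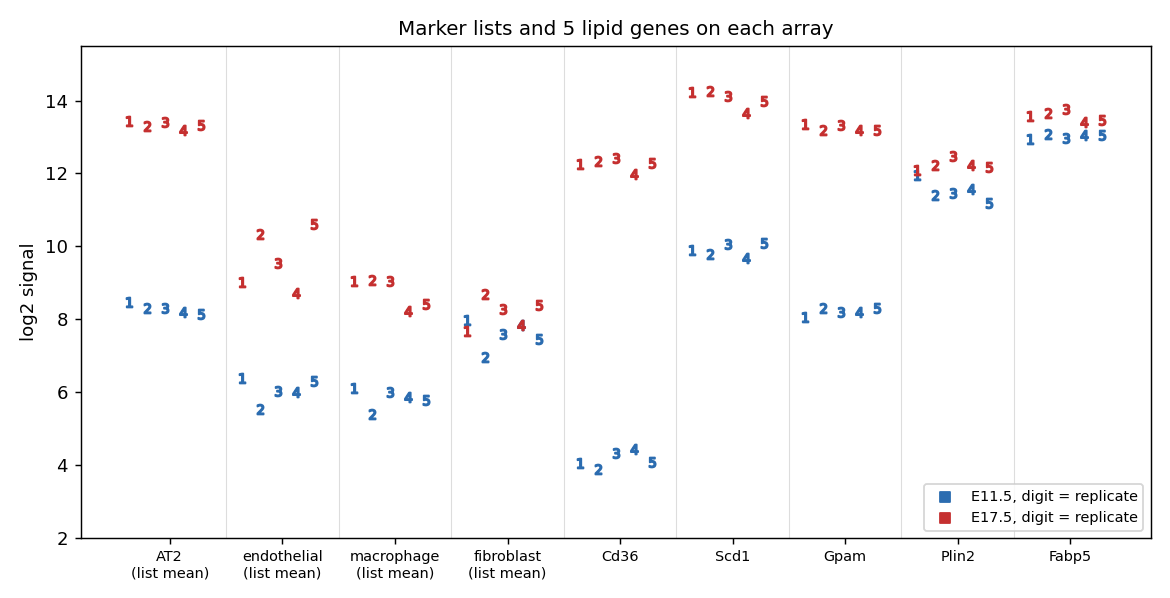
Mean log2 signal of 4 marker lists and log2 signal of 5 lipid genes (vertical axis) on each array, with the digit giving the replicate, E11.5 in blue and E17.5 in red. The endothelial list mean ran from 8.72 to 10.61 over the E17.5 arrays, and its lowest array, replicate 4, also held the lowest E17.5 values of *Cd36* (11.98) and *Scd1* (13.67). The AT2 list mean was lowest on replicate 4 as well, at 13.18 in a range up to 13.45.

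Sterol synthesis starts with the mevalonate pathway. *Hmgcs1*, the synthase that makes HMG-CoA, had log2 signals of 11.84, 12.00, 12.17, 12.01 and 12.37 at E11.5 and 14.07, 14.15, 14.28, 14.08 and 14.10 at E17.5. It rose 4.17-fold with no overlap (limma, adjusted p = 3.2e-09). Among the sterol genes with a promoter window, only *Hmgcs1* held TCACNCCAC, as printed above, while *Fdps*, *Fdft1* and *Sqle* had no window to search.

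The kinases and the decarboxylase that follow did not rise. *Mvk*, mevalonate kinase, differed by -0.19 (95% confidence interval -0.44 to 0.05, limma, adjusted p = 0.15) and *Pmvk*, phosphomevalonate kinase, by 0.16 (-0.06 to 0.37, adjusted p = 0.18). *Mvd*, the decarboxylase that yields isopentenyl diphosphate, fell 2.37-fold, from 9.57, 9.37, 9.68, 9.38 and 9.63 to 8.76, 7.99, 8.25, 8.24 and 8.15 (adjusted p = 4.6e-06). *Idi1*, the isomerase of that product, fell 4.03-fold, from 11.69, 11.80, 11.99, 11.75 and 11.85 to 9.87, 9.46, 9.65, 10.21 and 9.82 (adjusted p = 3.1e-08). In *Mvd* and *Idi1* no E17.5 array reached the E11.5 range.

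The steps from isoprenoid units to squalene ran the other way. *Fdps*, farnesyl diphosphate synthase, rose 7.73-fold, from 7.23, 7.72, 7.93, 7.85 and 7.89 to 11.25, 10.60, 10.32, 10.32 and 10.88 (limma, adjusted p = 3.6e-08). *Fdft1*, squalene synthase, rose 7.44-fold, from 8.18, 8.01, 8.35, 8.04 and 8.02 to 10.76, 10.97, 11.28, 11.30 and 10.78 (adjusted p = 9.8e-10). *Fdft1* was measured by a probe set whose suffix (_x) marks probes that can also match other transcripts.

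From squalene to cholesterol, 5 of the 6 listed enzymes measured fell and *Lss* was not called. Of the enzymes of this stretch in the wider sterol list, *Hsd17b7*, *Tm7sf2* and *Lbr* were lower (differences of -3.12, -0.97 and -0.30), *Msmo1* was not called (-0.36, limma, adjusted p = 0.081) and *Ebp* was higher (0.26, adjusted p = 0.048, with overlapping arrays). *Sqle*, squalene epoxidase, fell 3.56-fold, from 11.40, 11.27, 11.51, 11.38 and 11.45 to 9.57, 9.28, 9.50, 9.96 and 9.51 (limma, adjusted p = 2.8e-08). *Lss*, lanosterol synthase, differed by -0.12 (95% confidence interval -0.43 to 0.18, adjusted p = 0.47). *Cyp51*, the lanosterol demethylase, fell 2.62-fold, from 10.64, 10.59, 10.77, 10.60 and 10.70 to 9.51, 9.22, 9.04, 9.40 and 9.18 (adjusted p = 8.1e-08). The stages of *Sqle* and *Cyp51* were separate, and those of *Lss* overlapped.

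Of the later steps, 3 genes were on the list and each was lower. *Nsdhl*, a sterol dehydrogenase that helps to remove methyl groups, was 1.91-fold lower (10.94 ± 0.21 to 10.01 ± 0.14, limma, adjusted p = 1.3e-05). *Dhcr7*, which makes cholesterol in the final reduction, fell 2.67-fold, from 12.30, 12.35, 12.48, 12.23 and 12.36 to 10.69, 11.02, 10.90, 11.05 and 10.97 (adjusted p = 3.0e-08). *Sc5d*, the lathosterol desaturase, had 8.92, 9.22, 9.29, 9.20 and 9.54 at E11.5 and 5.72, 5.12, 5.80, 4.38 and 4.89 at E17.5. It fell 16.6-fold, with the widest spread of any of the 38 genes at E17.5 (SD 0.59, 95% confidence interval of the log2 difference -4.59 to -3.52, adjusted p = 1.7e-08).

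Within sterol synthesis, therefore, 3 of 13 genes were higher, 7 lower and 3 not called. With the other scalings, *Mvk* and *Lss* were called lower, at -0.75 and -0.71 with quantile normalization and -0.44 and -0.37 with median centring. *Pmvk* turned to -0.37 after quantile normalization and was then called lower (limma, adjusted p = 0.0058).

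The listed genes of sterol sensing changed in opposite directions. *Srebf2*, which encodes the SREBP that drives sterol genes, had 10.39, 10.86, 10.89, 10.85 and 10.95 at E11.5 and 10.32, 10.02, 9.91, 9.68 and 9.99 at E17.5. It was 1.74-fold lower (limma, adjusted p = 0.00021), a log2 difference of -0.80 that was -1.38 with quantile normalization and -1.05 with median centring. The stages nearly met, at E11.5 replicate 1 and E17.5 replicate 1. *Insig1*, which holds the SREBP complex in the endoplasmic reticulum, was 1.54-fold higher, from 12.93, 12.84, 12.87, 12.79 and 12.95 to 13.51, 13.61, 13.67, 13.33 and 13.37 (adjusted p = 5.0e-05). *Srebf1* and *Srebf2*, the paralogous factors, thus differed in direction.

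**Figure D5:**
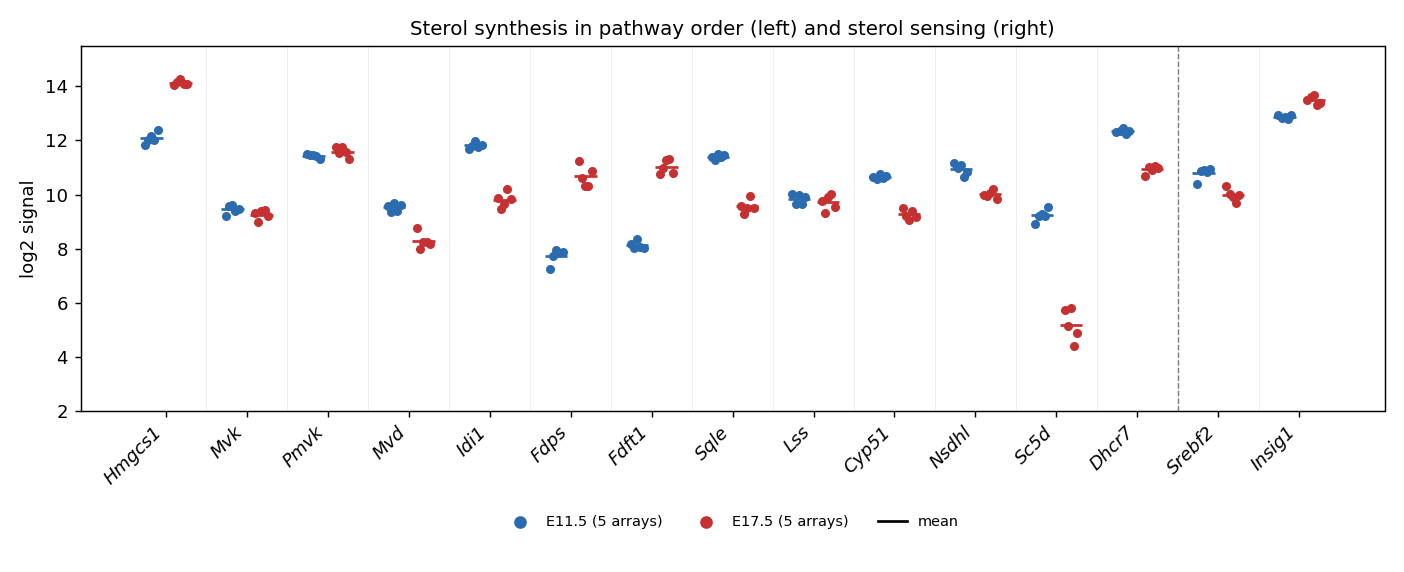
Log2 signal (vertical axis) of the 15 sterol genes on each array, in the order of the pathway, with E11.5 in blue, E17.5 in red and a line at the mean of 5 arrays. *Hmgcs1*, *Fdps*, *Fdft1* and *Insig1* were higher at E17.5, *Mvk*, *Pmvk* and *Lss* overlapped and were not called, and the other 8 were lower.

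The other genes of these pathways were listed by their place in the pathway and not by how they moved. Of 36 other phospholipid genes measured, 19 were higher (52.8%, against 36.9% of all genes) and 10 lower (27.8%, against 31.5%). Their median difference was 0.56 (18 higher and 15 lower with quantile normalization, 18 and 14 with median centring). The largest rises were those of *Pla2g1b*, a secreted phospholipase (16.2-fold), *Cds1*, which makes CDP-diacylglycerol for the acidic phospholipids (13.4-fold), *Mboat1*, a lysophospholipid acyltransferase (5.73-fold) and *Slc44a4*, a choline transporter-like protein (5.46-fold). Among the falls were *Pgs1*, which makes phosphatidylglycerol phosphate from CDP-diacylglycerol (13.6-fold lower), *Gpat4*, a glycerol phosphate acyltransferase of the endoplasmic reticulum (10.5-fold lower), *Pla2g15*, a lysosomal phospholipase (4.97-fold lower), and *Agpat1* (2.91-fold lower). As with *Gpam*, *Agpat2* and *Agpat4* above, genes for the same early steps changed in both directions.

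The lysophosphatidylcholine acyltransferases beside *Lpcat1* were not uniform. *Lpcat2* rose from 6.80 to 8.96 and *Lpcat3* from 8.88 to 10.26, whereas *Lpcat4* was lower, at 7.43 and 6.80 (limma, adjusted p = 5.8e-08, 7.0e-08 and 0.00034). They were singled out after their values were seen, as were *Chkb*, *Acacb* and the wider sterol enzymes named beside the late steps above, and *Elovl7*, *Elovl5* and *Lpl* below.

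Of 48 other fatty acid genes, 27 were higher (56.2%, against 36.9% of all genes) and 13 lower (27.1%, against 31.5%). Their median was 0.64 (21 higher and 16 lower with quantile normalization, 25 and 17 with median centring). *Acadl*, a mitochondrial acyl-CoA dehydrogenase of fatty acid oxidation, rose 34.3-fold. *Acss2*, which makes acetyl-CoA from acetate, rose 28.8-fold, from a mean of 6.26 to 11.10. *Fads3*, of the desaturase family, rose 25.3-fold. *Fabp4*, a fatty acid binding protein of adipocytes, macrophages and capillaries, rose by 3.52 on the log2 scale. Its E17.5 arrays stood at 6.83, 8.21, 7.62, 6.94 and 7.78, with the highest on replicates 2 and 5. The endothelial and the fibroblast list means were also highest on replicates 2 and 5, and which cells gave this signal was not tested.

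The 4 largest falls in that list were those of *Elovl4*, *Slc27a2*, *Elovl2* and *Plin4*. *Elovl4*, an elongase of very long chains, fell by 4.64 on the log2 scale, and *Elovl2*, an elongase of polyunsaturated chains, was 8.27-fold lower. *Slc27a2*, a fatty acid transporter with acyl-CoA synthetase activity, was 9.34-fold lower, and *Plin4*, a lipid droplet protein, 4.83-fold lower. Other elongases and uptake genes rose, *Elovl7* 5.58-fold, *Elovl5* 1.32-fold and *Lpl*, lipoprotein lipase, 5.78-fold.

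Of 25 other sterol genes, 11 were higher and 9 lower, against 36.9% and 31.5% of all genes. Their median was -0.03 (8 higher and 12 lower with quantile normalization, 8 and 13 with median centring). The 4 largest rises were those of *Abcg1*, a cholesterol exporter of macrophages and AT2 cells (18.5-fold), *Npc2*, the lysosomal cholesterol carrier that is also abundant in AT2 cells (11.2-fold), *Mylip*, which targets the LDL receptor for degradation (5.41-fold), and *Scap*, the escort of SREBP (4.15-fold). *Hsd17b7*, a further enzyme between lanosterol and cholesterol, was 8.69-fold lower, *Lcat*, which esterifies plasma cholesterol, 3.05-fold, *Stard4*, a sterol carrier, 2.79-fold, and *Mbtps1*, a protease that cleaves SREBP, 2.68-fold. *Abcg1* at E17.5 stood at 10.53, 10.89, 10.44, 9.13 and 10.44, with the lowest value on replicate 4. The macrophage, endothelial and AT2 list means were all lowest on that array.

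The arrays of a stage resembled each other, with Pearson correlations across genes of at least 0.988 among E11.5 arrays and at least 0.984 among E17.5 arrays, and of 0.847 at most across the stages. Within a stage, SDs of the 38 lipid genes ran from 0.03 to 0.59. Upper quartiles reached 9.46 on the E11.5 and 10.04 on the E17.5 arrays, so the deposited values did not share a common distribution. The table carries no detection calls, so whether the low signals of *Lpcat1*, *Pcyt1b*, *Elovl6* and *Sc5d* at E17.5 and of *Cd36* at E11.5 lay above background was not tested. The number of arrays limits the precision.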

How the data were processed

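Gene expression was measured on 10 Affymetrix mouse arrays, 5 per stage. Total RNA was amplified and labelled by the authors with NuGEN reagents, and the scans were processed with Bioconductor. The deposited values are log2 signals of 21204 probe sets (2.472 to 15.03, 0 missing). How background was corrected, how arrays were normalised and how probe sets were chosen is not given in the sources consulted. Names came from the platform annotation (17981 with 1 gene, 514 with several and 2709 with none, the latter kinds left out), and Entrez identifiers of 17832 matched a RefSeq table of GRCm38.p6 with 0 symbols updated. The probe set with the highest mean over all arrays stood for a gene, and no filter on dim genes was applied. Stages were compared with limma 3.58.1 in R 4.3.3 (lmFit and eBayes, E17.5 minus E11.5), p-values were adjusted by Benjamini-Hochberg over 17813 genes, with calls at an adjusted p under 0.05. The fit was tested on simulated data. A fold is 2 raised to the difference between mean log2 signals. The listed genes, pathway lists and marker lists were chosen with earlier results of these data known. Every listed gene measured is named, with, of each pathway list, up to 4 called genes with the largest change in each direction, and, of each marker list, its defining genes. Alternatives were quantile normalization, median centring over the genes tested, the mean of a gene's probe sets, leaving out probe sets with the suffix _x, _s or _a, leaving out genes with a mean under the median of all genes, trend and robust moderation, array weights, a replicate block, a test against a 2-fold change, and leaving out each array in turn. A planned comparison of protein sequences between paralogues was not made. Plots used matplotlib 3.10.9 under Python 3.11.15.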

Additional observations from a re-analysis of the deposited data

Results flagged for a closer look

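In the 76 groups of 5 arrays given by the 38 lipid genes and both stages, 2 groups held an array whose gap to the nearest other took more than 0.71 of the range of the group, and chance gives about 4. *Acly* on E11.5 replicate 5 had a log2 signal of 8.29, with the nearest other array at 8.24, in a group with an SD of 0.03. *Srebf2* on E11.5 replicate 1 had 10.39, with the nearest other array at 10.85 and the highest E17.5 array at 10.32.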

How the results depend on the processing

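Among the lipid genes, 31 of 38 kept their direction and call after quantile normalization, 35 after median centring, 37 with array weights and 38 with the mean of probe sets or with trend and robust moderation. Reversed were *Elovl1* (-0.15) and *Pmvk* (-0.37), both after quantile normalization, and *Mvk* passed with array weights (-0.27, limma adjusted p = 0.034). The cause was not tested. Leaving out probe sets with a suffix measured 27 of the genes. Of these, 12 were higher and 14 lower (44.4% and 51.9%, against 35.0% and 31.5% of all genes). Their median difference was -0.53, beside 0.01 over all genes and 0.31 for the 38. Of the 12, 2 were sterol genes, and 6 of 27 other phospholipid genes were lower (22.2%, against 31.5% of all genes). Leaving out genes under the median signal measured 32, of which 19 were higher and 10 lower (59.4% and 31.2%, against 49.7% and 34.2% of all genes kept). The lower genes included 3 phospholipid and 0 fatty acid genes. This filter removed *Chka*, *Pcyt1b*, *Lpcat1*, *Acaca*, *Elovl6* and *Sc5d*. In the wider lists it left 4 of 24 phospholipid and 6 of 34 fatty acid genes lower (16.7% and 17.6%), and 7 of 17 sterol genes higher (41.2%). Against a 2-fold change, 11 of the 38 were higher and 11 lower. Among all 17813 genes, that test gave 3437 higher and 2045 lower. Of the 38, it gave 4 higher and 4 lower phospholipid, 4 higher and 2 lower fatty acid and 3 higher and 5 lower sterol genes. In the wider lists that test gave 12 higher and 6 lower phospholipid, 14 higher and 5 lower fatty acid and 7 higher and 3 lower sterol genes. Leaving out each array in turn gave 18 to 19 higher and 15 to 16 lower lipid genes, and 16 of 380 combinations of gene and array changed a call, in *Lpin2*, *Elovl1* and *Pmvk* (called at 0.22 without E17.5 replicate 5). With the replicate number as a block, 19 were higher and 15 lower, since *Lpin2* was lost (adjusted p = 0.084). Same-numbered arrays had correlations of deviations of -0.294, -0.184, -0.00628, -0.0982 and 0.074, so the numbers do not pair the arrays. Signal over background limits the low values, since no detection calls accompany the table.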
